A study of Mus musculus with 4 samples.

Results

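Among the cells sorted as T cells from B16 melanomas, 344 carried the transcripts of macrophages, monocytes and dendritic cells and almost none of the CD3 complex. They were picked by 3 measured values from the 2827 cells of that sort that had 50 to 5999 genes and less than 15% mitochondrial counts. A cell entered with at least 5 counts of Lyz2, the lysozyme gene of the myeloid lineage, with fewer than 3 counts of Siglech, a surface protein of plasmacytoid dendritic cells, and with less than 0.055% of its counts from Cd3d, Cd3e and Cd3g, which encode the invariant chains of the T cell receptor complex. The count is of unique molecular identifiers (UMIs), each of which stands for 1 captured RNA molecule. Because Lyz2, Siglech and the CD3 genes made the choice, their values below describe the cells and support nothing.

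The study asked which immune cells take up material from tumor cells. B16-F10 is a mouse melanoma line. Cells of a single clone that makes the green fluorescent protein ZsGreen (ZsG) when doxycycline is given were injected subcutaneously into wild-type C57BL/6 mice, the mice drank doxycycline in the days before harvest, and tumors were taken on day 8. In one experiment T cells were sorted from the tumor-infiltrating cells, as CD45+ TCRb+ per the labels and CD45+ CD3+ per the study's methods, into a ZsG- and a ZsG+ library, and in a separate experiment all CD45+ infiltrating cells were sorted into a ZsG- and a ZsG+ library. All 4 groups therefore came from tumors that carried the inducible ZsG, and none came from a tumor without it. The sources used here do not say how many mice gave cells to a library.

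Each group was 1 library of droplet-based 3′ single-cell RNA-seq. No value below describes a spread between mice, no test was possible, and the 95% intervals cover counting error only. In the T cell sort the ZsG- library held 1136 cell barcodes and 10030971 UMIs, and the ZsG+ library held 2396 barcodes and 22100220 UMIs. In the CD45 sort they held 5437 barcodes with 47537541 UMIs and 5168 barcodes with 56510578 UMIs. A library had between 5 and 11 barcodes in common with the others.

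Some properties of the files bear on every comparison. The gate of a T cell library was read from the order given in the name of the combined matrix, which makes the library with 2396 barcodes the ZsG+ one. The names of the single libraries carry numbers in the opposite order, and with that order every ZsG+ over ZsG- difference of the T cell sort would change sign. The T cell matrix was made with Cell Ranger 6.1.2 and the CD45 matrix, per its header, with 7.0.0, and they share 30406 gene identifiers. By the study's account the ZsG+ gate of the CD45 sort took brightly fluorescent cells, so dimmer cells could fall into its ZsG- gate, and ZsG- and ZsG+ are not the same cut in the sorts. The sort, the gate, the experiment, the Cell Ranger version and the set of genes counted cannot be told apart between the sorts.

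Monocytes enter tumors from the blood and turn into macrophages there. On the way they lose monocyte transcripts such as Ly6c2, Vcan and Chil3 and gain those of tissue macrophages. The C1q genes are the best known of the gained set. C1qa, C1qb and C1qc encode the 3 chains of the first component of complement, which macrophages make and which tags debris and dying cells for uptake. Cd74, the invariant chain, escorts MHC class II molecules to the compartment where they are loaded with antigen, and is high in dendritic cells and in macrophages exposed to interferon gamma.

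The 3 C1q genes lie side by side and were high or low together in these cells, so their promoters are shown here. RefSeq promoters, which run from 250 bases before to 50 bases after a gene start, were matched for 2 of the 3 genes (C1qb and C1qc). Capitals mark GAGGAA, read on either strand, the core of the site bound by PU.1, a transcription factor that myeloid cells depend on. The C1qb promoter is chr4:136886151-136886450 and the C1qc promoter is chr4:136892865-136893164 of GRCm38.p6, both on the minus strand and written 5′ to 3′.
C1qb: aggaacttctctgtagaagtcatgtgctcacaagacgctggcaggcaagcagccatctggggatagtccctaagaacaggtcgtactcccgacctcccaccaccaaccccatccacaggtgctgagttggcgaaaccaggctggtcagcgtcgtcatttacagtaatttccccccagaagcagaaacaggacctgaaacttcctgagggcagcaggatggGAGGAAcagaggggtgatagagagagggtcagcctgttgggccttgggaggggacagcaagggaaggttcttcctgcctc
C1qc: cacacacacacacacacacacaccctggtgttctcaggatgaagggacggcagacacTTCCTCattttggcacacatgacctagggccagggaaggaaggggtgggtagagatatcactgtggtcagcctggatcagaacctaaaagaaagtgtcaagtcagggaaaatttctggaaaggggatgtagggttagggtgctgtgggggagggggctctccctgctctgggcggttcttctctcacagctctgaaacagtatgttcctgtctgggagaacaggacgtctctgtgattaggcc
C1qb held the 6 letters once as written, and C1qc held them once on the opposite strand (TTCCTC). The same letters occur in 9289 of 32851 RefSeq promoters of this length (28.3%), so their presence here is a description of the sequence only.

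The selected cells numbered 86 in the ZsG- library, 9.07% of its 948 kept cells (7.32 to 11.1), and 258 in the ZsG+ library, 13.7% of its 1879 kept cells (12.2 to 15.4). On the log2 scale the share was 0.60 higher with ZsG (0.24 to 0.97). Of the cells below the CD3 limit alone, they were 29.8% of 289 ZsG- cells and 23.5% of 1099 ZsG+ cells, and on that base the log2 ratio was -0.34 with an interval that reached past 0 (-0.70 to 0.03). The direction thus depended on the base, because 659 of the kept ZsG- cells and 780 of the kept ZsG+ cells passed the CD3 limit.

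The limits lay in sparsely filled ranges. The median cell held 153.5 Lyz2 UMIs in the ZsG- and 86.5 in the ZsG+ library. Exactly 5 Lyz2 UMIs were found in 0 ZsG- and 6 ZsG+ cells, and 0 and 9 cells with 4 UMIs just missed the limit. A CD3 share between 0.045% and 0.055% was found in 0 and 2 cells, and 0 and 2 further cells lay between 0.055% and 0.065%. The Siglech limit removed 1 and 6 cells.

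**Figure D1:**
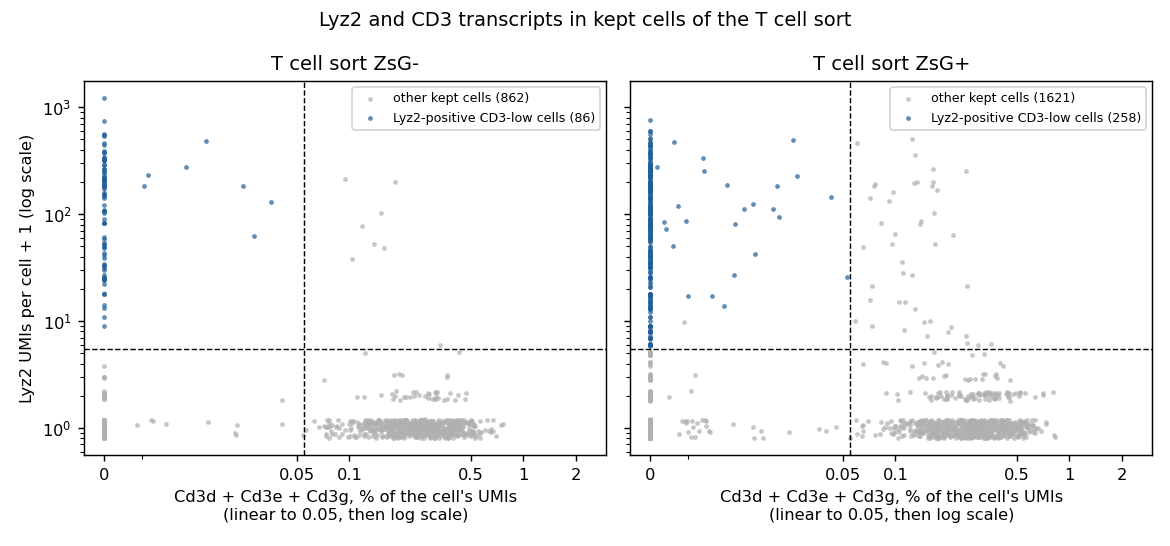
Each point is a kept cell of the T cell sort, with its Lyz2 UMIs plus 1 on a log axis (vertical, slightly jittered so that equal values can be seen) and the percent of its UMIs from Cd3d, Cd3e and Cd3g (horizontal, linear up to 0.05 and log above), in the ZsG- library (948 cells) and the ZsG+ library (1879 cells). The 86 and 258 selected cells lie above the Lyz2 limit of 5 and left of the CD3 limit of 0.055%, and most of them sit well above that Lyz2 limit.

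The selected cells were deep. Their median was 13565.5 UMIs and 2968.5 genes in the ZsG- library and 11626.5 UMIs and 2820 genes in the ZsG+ library, against medians of 5799 and 6501 UMIs in the CD3-high cells of the same libraries. The CD3-high cells are the natural background for free RNA and for droplets with more than 1 cell. Of them, 1.21% of ZsG- and 5.77% of ZsG+ cells also had 5 or more Lyz2 UMIs. Lyz2 stood at 159 and 612 CPM (UMIs of the gene scaled to a common library total of 1e6) in CD3-high cells, and at 11761 and 9572 CPM in the selected cells.

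Of the markers given for these cells, Cd74 was broad and C1qa was not. Cd74 was at 4967 CPM in the ZsG- and 6440 CPM in the ZsG+ cells, and C1qa was at 1789 and 1622 CPM. Per cell, however, 43.0% of the ZsG- and 39.1% of the ZsG+ cells had no UMI of any C1q gene. Another 46.5% (35.7 to 57.6) and 51.6% (45.3 to 57.8) had 5 or more, with only 10.5% and 9.30% in between. In CD3-high cells with fewer than 5 Lyz2 UMIs, the share with 5 or more C1q UMIs was 0.307% at a median of 5765 UMIs in the ZsG- library and 2.04% at a median of 6210 UMIs in the ZsG+ library. The label was therefore met by Lyz2 in all cells, by its own choice, and by C1qa in about as many cells as lacked it. At least 5 C1q UMIs together with at least 5 UMIs of Ly6c2, Vcan and Chil3 were found in 29.1% and 32.9% of the cells. Ly6c2 was at 940 and 1213 CPM in the selected cells but at 1416 and 1034 CPM in the CD3-high cells. Ly6c2 by itself thus did not set the selected cells apart from CD3-high cells. The share of cells with that count among CD3-high cells was not measured, and whether it marks monocyte transcripts beside C1q was not tested. After each cell was thinned to 2000 UMIs, which left out 8 and 9 shallower cells, a C1qa UMI was found in 38.5% and 38.6% of cells, against 40.7% and 49.2% unthinned.

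Transcripts of other lineages were looked for with fixed lists. Of the 12 T cell markers (Trac, the T cell receptor alpha chain constant region, and others), 1 was at 0 in the ZsG- cells and none in the ZsG+ cells. Their summed level was 97.5 CPM (81.7 to 115) and 109 CPM (98.9 to 121), with Trbc2 the most abundant, against 5056 and 4495 CPM in CD3-high cells. Trac itself had 18 and 48 UMIs, and was at 636 and 655 CPM in CD3-high cells. A CD3 UMI was present in 7 ZsG- cells, whose median depth was 32254 UMIs, and in 25 ZsG+ cells, whose median depth was 16609 UMIs. The part of free RNA or of joined cells in these counts was not tested.

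The 10 NK cell markers summed to 116 CPM with 5 at 0 in the ZsG- cells and to 196 CPM with 2 at 0 in the ZsG+ cells, a log2 ratio of 0.76 (0.51 to 1.02), against 2486 and 2357 CPM in CD3-high cells. Klrk1, an activating receptor, was the most abundant in both. The list's 3 genes 2-fold or more higher were Nkg7, Gzma and Prf1, of 4 with enough UMIs, against 2.75% of all 8809 genes compared. Members with a CD3 UMI held 94.6% of the 168 ZsG+ UMIs of Nkg7, 72 of the 96 of Gzma and 88.9% of the 36 of Prf1. All 3 genes encode proteins of cytotoxic granules. Ncr1, a receptor of NK cells, had 0 and 7 UMIs.

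The 8 B cell markers summed to 61.4 and 65.4 CPM, most of it Ighm, with 5 and 6 of the markers at 0. Cd79a, a chain of the B cell receptor, was at 1.44 and 0 CPM. Mast cell and basophil markers were at 0 but for Cd200r3. The 10 neutrophil markers summed to 54.2 CPM with 5 at 0 in the ZsG- cells, Csf3r leading, and to 265 CPM with 2 at 0 in the ZsG+ cells, S100a9 leading. The neutrophil genes Ly6g and Camp were at 0 in both. All 350 UMIs of S100a9, an abundant calcium-binding protein of neutrophils, came from 2 ZsG+ cells with 261 and 89 UMIs, and 95.1% of the 267 UMIs of S100a8, its partner, came from 2 cells.

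Melanoma transcripts stood at similar low levels in both gates. The 10 melanocyte markers summed to 65.7 CPM (52.9 to 80.7) in ZsG- and 60.7 CPM (53.0 to 69.2) in ZsG+ cells, with 3 and 2 markers at 0. Mitf, a transcription factor of melanocytes that macrophages also use, was the most abundant, at 39.7 and 36.9 CPM. Dct, an enzyme of melanin synthesis, was at 10.8 and 8.75 CPM, and Pmel, which builds melanosome fibrils, was at 2.89 and 4.38 CPM. In CD3-high cells the same list summed to 8.74 and 18.6 CPM. The log2 ratio of the list between the gates was -0.12 (-0.47 to 0.25), so no difference in melanocyte RNA was detectable at this depth.

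The 344 cells fell into 7 clusters when they were grouped without the genes of the rule. Clusters are described by their leading genes, which come from the same cells and are no test. A cluster bears a cell type name only where 3 or more markers and at least 50% of a fixed list were raised in it and no other list had more of its markers among the 10 leading genes. The limit of 50% was set with the data in view, and without it cluster 4 would have been inflammatory monocyte-like, with 4 of 10 markers raised.

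Cluster 3 (56 cells) was cycling-like, with 10 of 10 cycling markers raised, and also raised 9 of 10 C1q macrophage markers, and 5 of 10 hypoxic macrophage markers, with C1qa at 3206 CPM, Spp1 (osteopontin) at 2969 CPM and Trem2, a lipid-sensing receptor of macrophages, at 609 CPM. Cdca2 and Sgo2a, which act in mitosis, Fcrls, Akr1b8 and Baiap2l1 led it. Mki67, the proliferation marker, was at 139 CPM there, at 117 CPM in cluster 6, at 12.2 CPM in cluster 5 and at 5.38 to 6.71 CPM in the other clusters, and 51 of its 179 UMIs in cluster 3 were from 1 cell. It was also the deepest cluster, with a median of 24409 UMIs.

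Cluster 1 (95 cells) held C1qa at 1994 CPM and Cd74 at 6735 CPM, but its leading genes were those of activated T cells. They were Ifng, Gzmb and Xcl1, which encode interferon gamma, granzyme B and the ligand of XCR1, and Lat and Thy1. A UMI of the first 3 was found in only 15.8%, 10.5% and 10.5% of its cells. Over all clusters, 2 cells held 94.7%, 76.0% and 94.6% of their ZsG+ UMIs. Cluster 1 had 4 of 10 C1q macrophage markers raised and 3 T cell markers among its 10 leading genes, and was left without a name on both counts. A UMI of a T cell marker was found in 21.1% of its cells, 30.4% of cluster 3 and 30.8% of cluster 6, the highest shares of the 7 clusters. These were also the deepest clusters, with medians of 15254, 24409 and 15822 UMIs, and such a share rises with depth. Their summed T cell markers were at 210, 118 and 36.2 CPM.

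Cluster 4 (56 cells) was unnamed as well. It was led by Gm47754, Lipg, Gm4841, Apol9b and Gbp2b, a guanylate-binding protein induced by interferon gamma. It had Cd74 at 10554 CPM, Cxcl9, a chemokine that draws CXCR3-bearing T cells, at 4624 CPM, Ly6c2 at 3336 CPM and C1qa at 1182 CPM. Monocyte, interferon and antigen presentation genes and C1q were thus all present in it.

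Cluster 2 (61 cells) was inflammatory monocyte-like, with 8 of 10 markers raised. Dmkn, Il15ra, Gm47242, Tcea3 and Cmpk2 led it, and it held Cxcl10 at 8152 CPM, Chil3 at 1807 CPM, the interferon-induced Isg15 at 2702 CPM and C1qa at only 20.1 CPM. Cluster 7 (22 cells) was hypoxic macrophage-like, with 10 of 10 markers raised. It was led by S1pr3, Adm, Fosl1, Ciart and Tnfrsf23 and held Hilpda, a lipid droplet protein induced by low oxygen, at 1796 CPM and Spp1 at 2442 CPM.

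Cluster 6 (26 cells) was like type 1 conventional dendritic cells, which present antigen to CD8 T cells. It raised 10 of 10 of their markers, 9 of 10 markers of type 2 conventional dendritic cells and 9 of 10 cycling markers, with Cd74 at 13992 CPM, Xcr1 at 106 CPM and C1qa at 8.51 CPM, and was led by Ccl17, Sept3, Plet1, Gcsam and A530099J19Rik. Cluster 5 (28 cells) was non-classical monocyte-like, with 9 of 10 markers raised and S1pr5, S100a8, Gm4876, Vnn3 and Hpgd in the lead. It also raised 7 of 10 inflammatory monocyte markers and 3 of 10 neutrophil markers. Its 11 ZsG- cells had a median of only 773 UMIs and no UMI of Ace or Treml4, 2 defining markers, while its 17 ZsG+ cells had a median of 7278 UMIs and 3 and 5 UMIs of these genes. At that depth 0 UMIs in the ZsG- cells allow up to 83.5 CPM by the exact Poisson interval. The ZsG- cells did hold Cx3cr1 at 294 CPM (13 UMIs) and Adgre4 at 45.3 CPM (2 UMIs), against 415 and 99.7 CPM in the ZsG+ cells. Of the inflammatory monocyte markers, Ly6c2 was at 2377 CPM in the ZsG- and 914 CPM in the ZsG+ cells. Chil3 was at 1879 and 1570 CPM, Ccr2 at 905 and 789 CPM and Vcan at 385 and 33.2 CPM. The name thus rests on the share of a list raised over the other clusters, not on the most abundant markers. S100a8 led cluster 5 mainly through 1 cell.

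**Figure D2:**
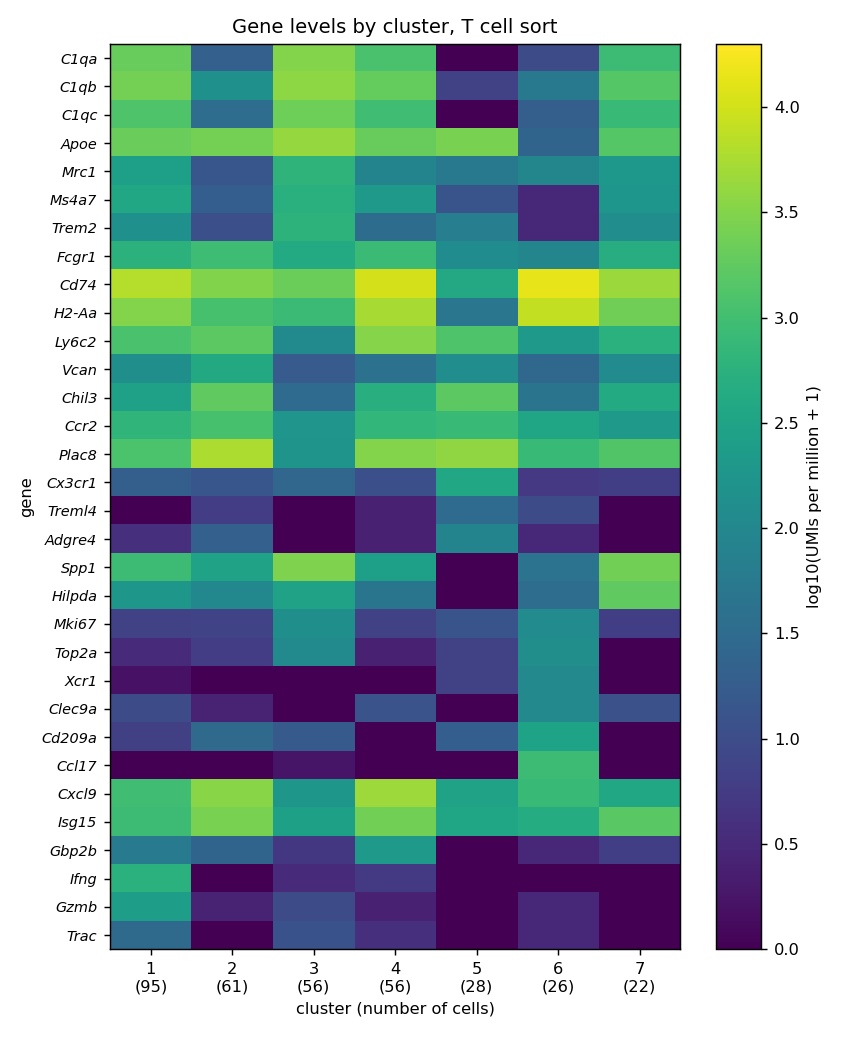
Colour gives log10(CPM + 1) of named genes (vertical) in each of the 7 clusters of the 344 cells (horizontal, with the number of cells), both ZsG gates together. C1qa is near 0 in clusters 2, 5 and 6 and highest in cluster 3, at 3206 CPM, and Cd74 is highest in cluster 6, at 13992 CPM, and lowest in cluster 5, at 389 CPM.

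**Figure D3:**
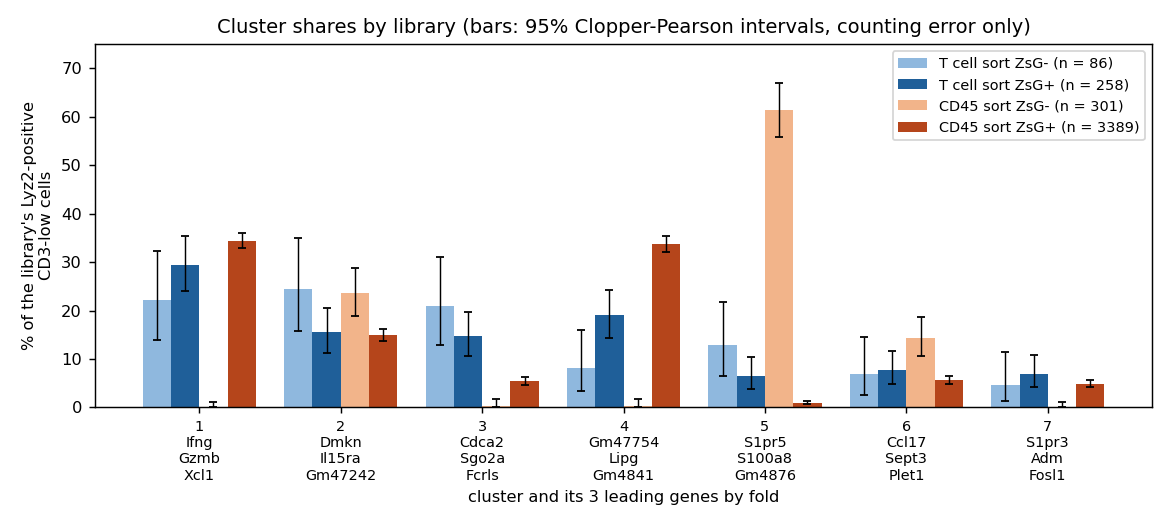
Bars give the percent of the selected cells of each of the 4 libraries in each of the 7 clusters, with exact 95% binomial intervals, and cells of the CD45 sort were given the cluster whose mean profile they correlated with best. The 2 T cell libraries have cells in all 7 clusters, and 61.5% of the ZsG- cells of the CD45 sort sit in cluster 5.

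Both gates of the T cell sort had cells in every cluster. Cluster 4 made up 8.14% of the ZsG- cells (7 cells) and 19.0% of the ZsG+ cells (49 cells), a log2 ratio of 1.22 (0.07 to 2.61), and was the only cluster whose interval stayed clear of 0. Under 10 other settings of the selection or clustering, its best match had ratios of 0.30 to 1.35 and an interval clear of 0 in 1 of them, so the difference was not stable. The C1q-rich clusters 1 and 3 had log2 ratios of 0.42 (-0.33 to 1.22) and -0.51. Cluster 2 was at -0.66, cluster 5 at -0.96, cluster 6 at 0.15 and cluster 7 at 0.58. With 4 to 21 ZsG- cells in a cluster, differences of that size could not be told from counting error under the settings used. Under the 10 other settings, the best match of cluster 2 had ratios of -0.89 to -0.34 and an interval clear of 0 in 2 of them.

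The transcripts of the gates were compared over all selected cells. UMIs were summed per library and given as CPM, 0.5 was added to each sum for the ratio, and the comparison took the 8809 genes that had 20 or more UMIs when the libraries were added. A ratio of 2-fold or more was counted, and 242 genes (2.75%) were higher and 113 (1.28%) lower in the ZsG+ cells. The interval was clear of 0 for 144 and 80 of these, and clear of 2-fold for 24 and 3. Among the 5083 genes with at least 100 UMIs, 28 (0.551%) were higher and 13 (0.256%) lower. Across 9844 genes, the gates correlated at r = 0.987 on a log2(CPM + 10) scale, a description over genes, which are not independent. The median log2 ratio of the genes compared was 0.00.

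Antigen presentation genes leaned to the ZsG+ cells. All 10 MHC class II genes had ratios above 0, though none reached 2-fold, and their summed UMIs had a log2 ratio of 0.45 (0.43 to 0.48). The median of the 10 was 0.33. H2-Ab1, a class II beta chain, was at 2395 CPM in ZsG- and 3457 CPM in ZsG+ cells, a log2 ratio of 0.53 (0.47 to 0.59). H2-Eb1 had 0.56 (0.50 to 0.63), Cd74 0.37 (0.34 to 0.41), and Ciita, the transcription factor that switches the class on, 0.23 (-0.14 to 0.64). Among the 12 MHC class I genes, 11 were above 0 and the summed ratio was 0.22 (0.19 to 0.25), with H2-Q7 at 0.84 (0.63 to 1.07).

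The class II difference was not even across clusters. In the monocyte-like cluster 2, H2-Aa was at 556 CPM in 21 ZsG- cells and 1489 CPM in 40 ZsG+ cells, a log2 ratio of 1.42 (1.14 to 1.71), and H2-Ab1 had 1.73 (1.45 to 2.03). In cluster 1, H2-Ab1 had 0.13 (0.04 to 0.22) and in cluster 3 0.49 (0.31 to 0.68). In cluster 5 the sign was the other way, at -2.55, on 3 and 7 UMIs. The CD3-high cells leaned the same way at lower levels, with the class II list at 383 CPM in the ZsG- and 1572 CPM in the ZsG+ library and H2-Ab1 at 73.2 and 276 CPM. The part of free RNA or of joined cells in the class II difference was not tested.

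Complement and macrophage genes lay near level between the gates over all selected cells. Of the 10 C1q macrophage markers none reached 2-fold and none had a ratio above 0, and the list's summed ratio was -0.17 (-0.20 to -0.14). C1qa was at 1789 and 1622 CPM, a log2 ratio of -0.14 (-0.21 to -0.07), and the growth factor receptor Csf1r had -0.15 (-0.33 to 0.02). Within clusters the values parted. The C1qa ratio was 0.03 (-0.06 to 0.13) in cluster 3 and -0.20 (-0.31 to -0.09) in cluster 1, where C1qc had -0.37 (-0.50 to -0.23). Apoe, a lipid carrier and the list's most abundant gene, had 1.03 (0.89 to 1.17) in cluster 1, 0.02 in cluster 2, -0.39 (-0.46 to -0.31) in cluster 3 and -1.03 (-1.30 to -0.76) in cluster 5. C4b, a later complement component, was higher at 1.90, but on 4 and 44 UMIs. The 12 complement genes together had a ratio of -0.12 (-0.16 to -0.09).

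Genes of uptake and degradation lay close to level between the gates, with members on both sides. The summed ratios were -0.09 for 20 lysosome genes, -0.19 for the uptake receptors and 0.14 for 6 Fc receptor genes, and none of these genes that had enough UMIs reached 2-fold. Axl, a receptor for dying cells, was at 117 CPM in ZsG- and 67.0 CPM in ZsG+ cells, a log2 ratio of -0.81 (-1.10 to -0.51). Ctsd, a lysosomal protease, had -0.49 (-0.57 to -0.41) and Mrc1, the mannose receptor, -0.27 (-0.43 to -0.10). Msr1, a scavenger receptor, had 0.02 (-0.13 to 0.18), and Fcgr4, an activating Fc receptor, 0.41 (0.25 to 0.57).

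The lipid-associated list had a summed ratio of -0.18, with 0 above 0 among the 13 of its 14 genes that had enough UMIs. Fabp4, a fatty acid carrier, was at 126 CPM in ZsG- and 58.8 CPM in ZsG+ cells, a log2 ratio of -1.10 (-1.39 to -0.80), and was the only member past 2-fold. Most of its UMIs, 172 ZsG- and 197 ZsG+, were in cluster 3, where the ratio was -0.67 (-0.97 to -0.37), short of 2-fold. Gpnmb, a glycoprotein of lipid-laden macrophages, had -0.86 (-1.12 to -0.60), and Spp1 had -0.23 (-0.31 to -0.15). The iron and redox list was at -0.29 (-0.31 to -0.27), led by the ferritin chain gene Fth1. Genes of hypoxia and glycolysis were on the other side, with 14 above 0 among the 16 of 18 that had enough UMIs, a summed ratio of 0.23 (0.19 to 0.26), and Vegfa, the vascular growth factor, at 27.5 and 50.3 CPM (log2 0.86, 0.36 to 1.42). The same list was at 6297 and 7376 CPM in the selected cells and at 3783 and 5785 CPM in the CD3-high cells of these libraries.

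**Figure D4:**
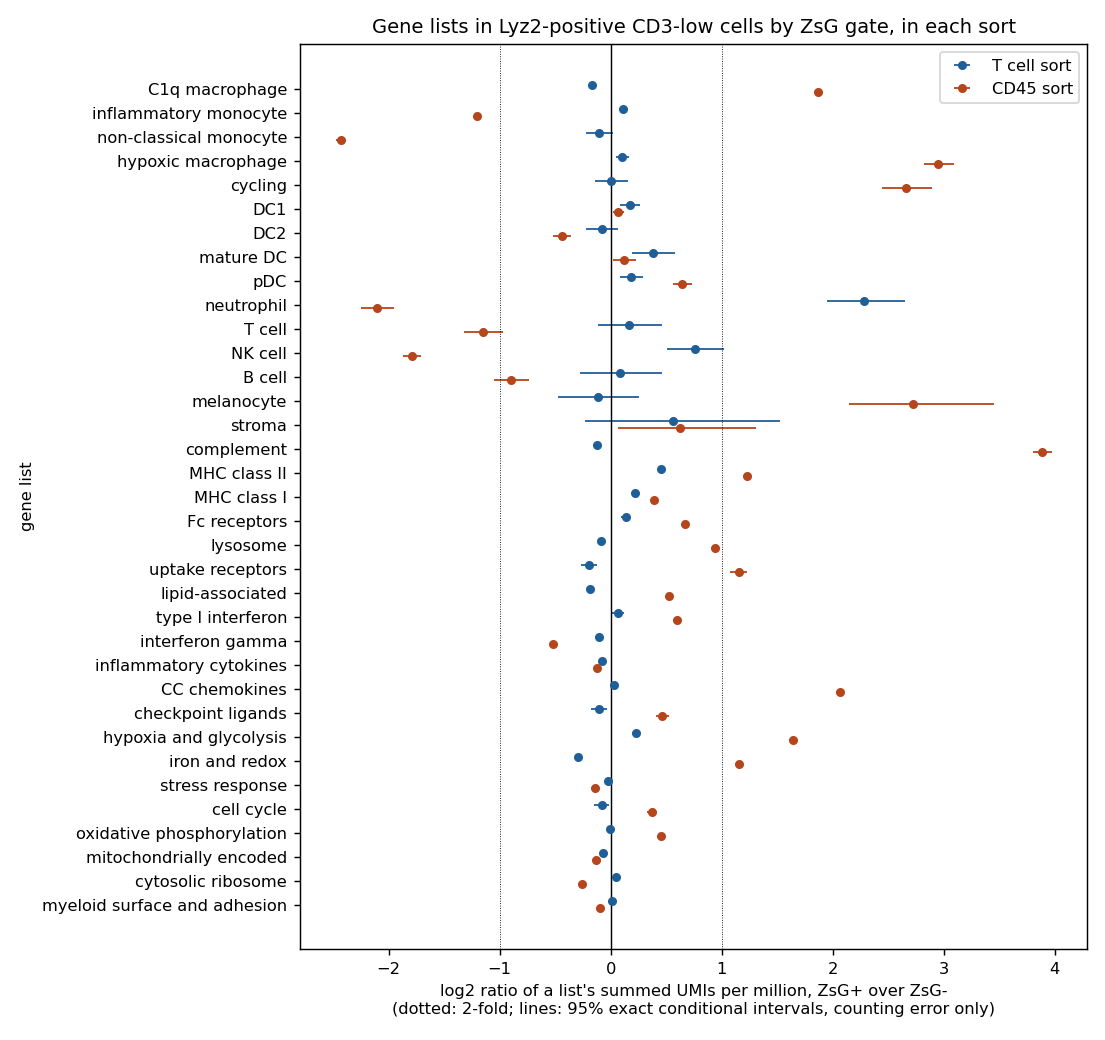
Points give the log2 ratio of summed UMIs of each gene list, ZsG+ over ZsG-, in the T cell sort (blue) and the CD45 sort (red), with lines for exact 95% intervals of counting error and dotted lines at 2-fold. MHC class II lies at 0.45 in the T cell sort and 1.23 in the CD45 sort, and the C1q macrophage list lies at -0.17 and 1.87.

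Interferon genes were close between the gates. The type I interferon list had a summed ratio of 0.06 (0.01 to 0.12) and the interferon gamma list -0.10 (-0.14 to -0.07), and no member reached 2-fold. Cxcl9 was at 1592 and 1462 CPM and Cxcl10 at 2404 and 2290 CPM. Within cluster 1, however, Cxcl9 was at 1769 CPM in ZsG- and 669 CPM in ZsG+ cells (log2 -1.40, -1.55 to -1.26). It had -0.87 (-1.24 to -0.49) in cluster 3, 0.13 (0.00 to 0.26) in cluster 2, and 3.60 (1.62 to 9.50) in cluster 5, on 1 ZsG- and 49 ZsG+ UMIs. Cxcl10 was likewise on both sides, at -0.75 (-0.87 to -0.63) in cluster 1 and 1.36 (1.04 to 1.72) in cluster 5.

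Among cytokines, Il10 stood out. Il10, which restrains macrophage and T cell activation, had 4 UMIs in 3 of the 86 ZsG- cells (2.89 CPM) and 130 UMIs in 27 of the 258 ZsG+ cells (35.6 CPM), a log2 ratio of 3.46 (2.23 to 5.52). The 2 richest ZsG+ cells held 29.2% of its UMIs, and members with a CD3 UMI held 30.8%. The ratio was 3.34 in cluster 1, 2.74 in cluster 2 and 3.55 in cluster 3, on 1 to 2 ZsG- UMIs each. In cells without any CD3 UMI it was 2.92, and it dropped to 1.26 with every cell thinned to 2000 UMIs. Cxcl1, a neutrophil attractant, was at 72.2 and 145 CPM (log2 1.00, 0.70 to 1.33), while Il1b had 0.08 (0.03 to 0.14) and Tnf 0.17 (0.03 to 0.31).

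Most CC chemokines were level, with a summed ratio of 0.03. Ccl8, a chemokine that macrophages secrete, was the exception in the ZsG+ direction, at 610 and 1309 CPM (log2 1.10, 0.99 to 1.21). Its UMIs came from 17 ZsG- cells, of which 2 held 42.7%, and from 67 ZsG+ cells, of which 2 held 24.7%. Ccl17, which dendritic cells secrete, was at 147 and 58.8 CPM (log2 -1.32, -1.60 to -1.03), and 197 of its 203 ZsG- UMIs were from 1 cell. Ccl2 had -0.28 (-0.32 to -0.24) and Ccl4 0.27 (0.21 to 0.33).

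The genes with the largest ratios toward ZsG+ were Ifng (7.85), Xcl1 (6.95) and Gzmb (6.79), followed by Il10 and then Cxcr3 (2.85), Serpinb6b (2.56), Gng11 (2.53), Ccdc80 (2.51), Trim59 (2.51) and Alg2 (2.37). The first 3 are effector genes of T and NK cells. Of the 911 Ifng UMIs of the ZsG+ cells, 94.7% came from 2 cells, with 562 and 301 UMIs, and 98.5% from cells with a CD3 UMI. For Xcl1 (814 UMIs) the share in cells with a CD3 UMI was 99.1% and for Gzmb (438 UMIs) 97.9%. In cells without a UMI of the 12 T cell markers, which the selection did not use, the ratios were 3.55 for Ifng, 0.80 for Xcl1 and 2.15 for Gzmb. Serpinb6b turned to -0.18 in those cells, and Ccdc80 turned to -0.83 when every cell was thinned to 2000 UMIs. Cxcr3, the receptor of Cxcl9 and Cxcl10, had 1 ZsG- and 28 ZsG+ UMIs.

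Under the same detection limit, the largest ratios toward ZsG- included Hist1h2ap (-2.03), Dgka (-1.80), Crybb1 (-1.68), Acvr1b (-1.62) and Fam92a (-1.62). Hbegf (-1.58), Stxbp5 (-1.57), Fam198b (-1.54) and AW209491 (-1.53) were next. Hist1h2ap encodes a histone of dividing cells, and 84.2% of its 139 ZsG- UMIs were from 2 cells. Hbegf, a growth factor of the EGF family, had 59 UMIs in 17 of 86 ZsG- cells and 52 UMIs in 29 of 258 ZsG+ cells, 42.6 and 14.2 CPM. For the 7 others named the ZsG- sum was 11 to 26 UMIs. The direction did not hold for Hist1h2ap in cells without a CD3 UMI (0.47) or without a T cell marker UMI (3.10), nor for Acvr1b (0.041) and Fam92a (0.11) when the clusters with 10 or more cells in each library were weighted equally.

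The same rule in the CD45 sort chose 301 of 4862 ZsG- cells (6.19%, 5.53 to 6.91) and 3389 of 4533 ZsG+ cells (74.8%, 73.5 to 76.0), a log2 ratio of 3.59 (3.42 to 3.77). In the T cell sort the ratio of the same share was 0.60 (0.24 to 0.97). CD3-high cells of the CD45 ZsG+ library carried much myeloid RNA, with 5 or more Lyz2 UMIs in 38.5% of 353 cells. Within the bulk sums, fewer cells of a type and less RNA per cell cannot be told apart.

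The selected cells of the ZsG- gates, which as said were not the same cut, were unlike each other. C1qa was at 1789 CPM (1719 to 1861) in the T cell sort and 6.83 CPM (4.05 to 10.8) in the CD45 sort, C1qb at 2191 and 40.2 CPM, and C1qc at 1281 and 9.10 CPM. At least 5 C1q UMIs were found in 46.5% of the ZsG- cells of the T cell sort and in 2.99% (1.38 to 5.60) of those of the CD45 sort, at medians of 13565.5 and 8510 UMIs. With cells thinned to 2000 UMIs, a C1qa UMI was found in 38.5% and 0.342% of them. For comparison, the ZsG+ cells had C1qa at 1622 and 1961 CPM and at least 5 C1q UMIs in 51.6% and 61.1% of cells. The C1q level of the ZsG- cells of the T cell sort thus lay near both ZsG+ libraries and far above the other ZsG- library.

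**Figure D5:**
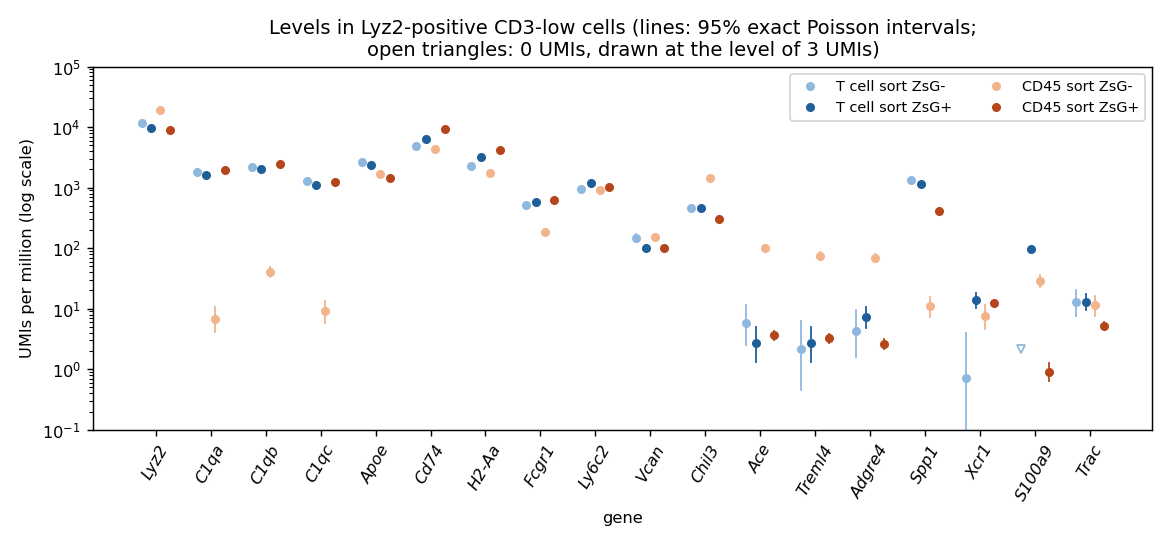
Points give the CPM (log axis) of named genes summed over the selected cells of each of the 4 libraries, with exact 95% Poisson intervals and an open triangle, at the level of 3 UMIs, for a gene with 0 UMIs. C1qa is at 1789, 1622 and 1961 CPM in 3 libraries and at 6.83 CPM in the ZsG- library of the CD45 sort, while Ace runs the other way.

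Genes of non-classical monocytes mirrored this. Ace, Treml4 and Adgre4, surface proteins of non-classical monocytes, were at 5.78, 2.17 and 4.33 CPM in the ZsG- cells of the T cell sort and at 100, 75.5 and 68.6 CPM in those of the CD45 sort. All 10 non-classical monocyte markers were 2-fold or more lower in the T cell sort, where 11.5% of all 8410 genes compared were lower and 9.76% higher, and the summed log2 ratio was -1.88. The C1q macrophage list had 8 of 10 markers 2-fold or more higher and a summed ratio of 2.08. All 10 hypoxic macrophage markers were higher, with a summed ratio of 3.70. Spp1 had 1874 and 29 UMIs. Of the NK cell markers, 8 of the 9 with enough UMIs were 2-fold or more lower, with a summed ratio of -2.36 (116 and 597 CPM). All 8 cycling markers with enough UMIs were 2-fold or more higher, with a summed ratio of 2.57. Of the 10 inflammatory monocyte markers 3 were 2-fold or more lower and none higher. Chil3 was at 466 and 1462 CPM, but Ly6c2 was at 940 and 906 CPM and Vcan at 147 and 156 CPM.

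By nearest cluster, 61.5% of the ZsG- cells of the CD45 sort went to cluster 5, 23.6% to cluster 2 and 14.3% to cluster 6. The 185 cells given to cluster 5 did not all carry its defining markers. A UMI of Ace was found in 34.1% of them and of Treml4 in 39.5%, while Ly6c2 was found in 85.9% (1069 CPM), Ccr2, the receptor by which classical monocytes leave the bone marrow, in 85.4% (1045 CPM) and Chil3 in 68.6% (1969 CPM). The assignment is thus a nearest match and not a cell type. Cluster 1 took 0 of 301, which allows a share of up to 1.22% by the exact binomial interval. In the ZsG- cells of the T cell sort, clusters 1 and 3 held 22.1% and 20.9%. When selected cells of the T cell sort were reassigned in the same way, 313 of 344 (91.0%) returned to their own cluster. Of the CD45 cells, 1188 of 3690 (32.2%) lay within 0.01 in correlation of another cluster, so single assignments are uncertain.

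Gate differences in the CD45 sort were correspondingly wide. Of 11574 genes compared, 1667 (14.4%) were 2-fold or more higher and 1288 (11.1%) lower in its ZsG+ cells, with C1qa at a log2 ratio of 8.13 and Ace at -4.79. Of the 10 C1q macrophage markers 8 were higher by this measure and of the 10 non-classical markers all were lower. In the T cell sort, with 2.75% of genes higher and 1.28% lower, none of the 10 C1q macrophage markers and none of the 8 non-classical markers with enough UMIs passed 2-fold. Il10 had a log2 ratio of 2.48 in the CD45 sort (2.65 and 15.8 CPM), in the same direction as in the T cell sort. MHC class II had 1.23 there. The difference between the sorts was not tested.

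The ZsG+ cells of the sorts were close. Over the same 9844 genes they correlated at r = 0.983, against r = 0.911 for the ZsG- cells. Of 11561 genes compared, 446 (3.86%) were 2-fold or more higher and 444 (3.84%) lower in the T cell sort. Many of these genes also differed between the matrices in CD3-high cells. Rnasek had 1 UMI in the T cell sort and 10072 in the CD45 sort, and in CD3-high cells it was at 0.610 and 146 CPM in the ZsG- gates. Of the 324 lower genes that could be compared in CD3-high ZsG- cells, 155 (47.8%) were 2-fold or more lower there too, against 8.62% of all genes compared in those cells. Of 258 higher genes 37 (14.3%) were also higher there, against 4.90%.

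The genes with the largest ratios included several with that pattern. In the higher direction they were Ptp4a1 (6.11), Rps6ka4, Cfap43, 4933427D14Rik, Xcl1 (4.61), Ifng (3.88), Fam220a, Chtf8, Coro1b and Ednrb. In the lower direction they were Rnasek, Fam89b, Fdx1l, Apoc2, Aarsd1, Atp6v0c, Tnfsf13, Hgs, Nme2 and Cpne1. The symbol Hgs is repeated in the T cell matrix, and the ratio is that of a single entry. Ptp4a1 was at 46.5 and 1.63 CPM, and Nme2 at 5.28 and 1235 CPM, in the CD3-high ZsG- cells of the T cell and CD45 sorts, so the gap was also present in CD3-high cells. The parts of the Cell Ranger version and of the differing gene sets in this gap were not tested.

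With such genes set aside, the highest under that detection limit were Xcl1, Ifng, Ednrb (3.13) and Gzmb (2.88). Next came the chemokine Ccl24 (2.73), Npl, Hpgd (2.63), which degrades prostaglandins, and Gas6 (2.41), the ligand of Axl and Mertk. Xcl1 turned to -0.95 in cells without a CD3 UMI, where Ifng was at 1.97, and Ifng was at 2.23 in cells without a T cell marker UMI and at 0.87 with the 5% highest Scrublet scores removed. For Gzmb, 97.9% of the ZsG+ UMIs of the T cell sort were from cells with a CD3 UMI. Ccl24 was at 135 CPM in the T cell sort and 20.4 CPM in the CD45 sort. The lowest were Gm10134, Hsd3b7 (-4.98), Cfb (-3.26), Lilrb4a (-2.71) and Gbp6 (-2.69). In CD3-high ZsG- cells Lilrb4a had -0.98 and Gbp6 -0.76, the same direction and just short of 2-fold, and in the CD3-high cells of the ZsG+ gates Lilrb4a was at 9.09 and 130 CPM and Gbp6 at 22.7 and 60.8 CPM. Of the genes in this paragraph, Ednrb, Ccl24, Npl, Gas6, Gm10134, Hsd3b7 and Cfb had fewer than 20 UMIs in CD3-high ZsG- cells and could not be compared there. Ccl24 had 7 UMIs there in the T cell sort and 1 in the CD45 sort, and Ednrb 4 and 6. Cfb, complement factor B, was at 27.1 and 260 CPM (log2 interval -3.57 to -2.98). It was also at 3.69 and 100 CPM in the CD3-high cells of the ZsG+ gates, and at 0.610 and 0.419 CPM in those of the ZsG- gates.

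Among the lists, the T cell sort had less MHC class II RNA in its ZsG+ cells, with 0 of 10 genes above 0 and a summed log2 ratio of -0.43 (-0.44 to -0.42). Cd74 was at 6440 and 9170 CPM. In the CD3-high cells of the ZsG+ gates the class II list was at 1572 CPM in the T cell sort and 6702 CPM in the CD45 sort, and the part of free RNA or of joined cells in the difference was not tested. The T cell sort had more RNA of the hypoxic macrophage list (0.85, 10 of 10 above 0 and 1 past 2-fold), of the CC chemokines (0.61, with 1 of 12 genes 2-fold or more higher and 1 lower) and of the lipid-associated list (0.35, with 5 of 14 genes 2-fold or more higher and 1 lower, against 3.86% and 3.84% of all genes). Spp1 was at 1155 and 409 CPM (log2 interval 1.45 to 1.54) and Gpnmb at 83.4 and 28.5 CPM (log2 1.55, 1.36 to 1.73). The T cell markers had 1.06 (0.90 to 1.21), 109 against 52.6 CPM. The neutrophil list had the widest ratio of those named here, 2.73 (2.62 to 2.85), with 5 of the 6 genes that had enough UMIs past 2-fold, and most UMIs of S100a9 and S100a8 were from 2 cells each, as given above. C1qa, at -0.27 (-0.31 to -0.24), and the C1q macrophage list, at 0.04, differed little.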

How the data were processed

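The authors deposited UMI counts per gene and cell barcode, 1 matrix per sort, made with Cell Ranger (6.1.2 in the labels and methods, 7.0.0 in the header of the CD45 matrix) on mm10 and combined with its aggr command. The sources used here do not say whether aggr evened out depth. Barcodes were assigned to libraries by suffix. Cells were filtered and selected as described, with no doublet removed. Scrublet, run by scanpy 1.11.5, called 4 of 948 and 11 of 1879 kept cells of the T cell sort, and too few of the CD45 sort to be of use. Clusters were made from 2000 variable genes, 20 principal components and 15 neighbours with leidenalg 0.10.2 at resolution 0.8. Sums, ratios and exact Poisson, Clopper-Pearson and conditional intervals were computed in Python 3.11.15 with numpy 2.4.6, scipy 1.17.1 and pandas 2.3.3, and figures with matplotlib 3.10.9. Alternative scaling factors came from edgeR 4.0.16 and DESeq2 1.42.0 in R 4.3.3, with no model fitted. Scripts were tested on simulated data.

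The genes named were the 10 largest ratios in each direction among genes with 20 or more UMIs that were detected in 5% or more of 1 library's cells, the 5 leading genes of a cluster among those detected in 10% or more of its cells, up to 4 members of each fixed list by summed UMIs, the genes of the selection and Lyz1. Other list members were chosen after their values were seen, and some genes that the rule names are not reported here. The cells, the markers and the lists were chosen with earlier results of these data known.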

Additional observations from a re-analysis of the deposited data

Results flagged for a closer look

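The values below are log2 ratios of ZsG+ over ZsG- that went past 2-fold in opposite directions in the 2 sorts, with both intervals clear of 0. Each sort had 1 library per gate, and the difference between the sorts was not tested. The neutrophil list was 2.28 in the T cell sort and -2.11 in the CD45 sort, and in the T cell sort all S100a9 UMIs came from 2 cells. Gzmb was 6.79 and -1.46, with 97.9% of its ZsG+ UMIs of the T cell sort in cells with a CD3 UMI. Hist1h2ap was -2.03 and 3.20, with 84.2% of its ZsG- UMIs of the T cell sort in 2 cells. Without cells that had a CD3 UMI its value in the T cell sort was 0.47, and without cells that had a T cell marker UMI 3.10, the direction of the CD45 sort. Hbegf was -1.58 and 1.89, on 59 ZsG- UMIs, 50.8% of them in 2 cells, and 52 ZsG+ UMIs in the T cell sort.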

How the results depend on the processing

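No paired analysis was possible because each group was 1 library, and for the same reason no replicate could be left out. The log2 ratio of the share of selected cells stayed within its interval under the alternatives run. The ratios of the cluster shares did so too, but these intervals are wide and the clusters themselves changed. Across 10 settings there were 3 to 8 clusters, and the best match of clusters 1 and 7 shared 50% or more of the joint cells in only 5 and 4 settings, against 8 to 10 for the others. At resolution 0.4 clusters 1, 3, 4 and 7 fell into 1 cluster of 230 cells. The sign of the ratio changed in at least 1 setting for clusters 3, 5 and 6. In the T cell sort, without a filter on UMIs 863 genes were higher and 1139 lower in ZsG+ cells, with at least 100 UMIs 28 and 13, with equal weights for the clusters with 10 or more cells in each library, which also drops clusters 4, 6 and 7, 453 and 280, and with cells thinned to 2000 UMIs 150 were higher. Between the sorts in ZsG+ cells, 3382 were higher and 687 lower without a filter, 133 and 194 with at least 100 UMIs, and 289 were lower without the genes that also differed in CD3-high cells, an alternative chosen after seeing the data. Without cells that had a CD3 UMI, Hist1h2ap turned to 0.47 and Xcl1 between the sorts to -0.95. Without cells that had any T cell marker UMI, also chosen after seeing the data, Hist1h2ap was 3.10 and Serpinb6b -0.18. Thinned, Ccdc80 was -0.83. With those equal weights, Acvr1b was 0.041 and Fam92a 0.11. Of the other values of single genes and lists, 316 moved out of their counting interval, apart from the reversals given, and 1397 did not. Scaling by edgeR or DESeq2 factors shifted the median log2 ratio of the T cell sort by -0.010 and -0.014. Depth limits every statement on cells: 86 ZsG- cells gave 1384580 UMIs, so 3 UMIs there correspond to 2.17 CPM.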

Other observations

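Several genes with ratios clear of 2-fold toward the ZsG+ cells of the T cell sort were outside the rule for named genes and were picked after their values were seen. Retnla, a secreted protein of alternatively activated macrophages, had 0 ZsG- and 1083 ZsG+ UMIs, of which 1032 were in 1 cell. Ppbp, a platelet chemokine, had 60 ZsG+ UMIs, 59 of them in 1 cell. Tnfrsf9, a costimulatory receptor of T cells, had 0 ZsG- and 59 ZsG+ UMIs, with 81.4% in cells with a CD3 UMI, and for Cd160 that share was 97.1% of 34 UMIs.

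Lyz1, a lysozyme gene closely related to Lyz2 that the rule did not use, had 72 UMIs (52.0 CPM) in ZsG- and 362 UMIs in ZsG+ cells of the T cell sort, and stood at 33.0 and 35.0 CPM in those of the CD45 sort. Reads of so similar a pair can be split between the genes by the counting, so the values are uncertain. In cluster 3 Lyz1 was at 24.2 CPM in ZsG- and 353 CPM in ZsG+ cells, and in cluster 1 at 138 and 13.7 CPM.

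Of the inflammatory monocyte-like cluster 2, the ZsG+ cells of the T cell sort held Spp1 at 491 CPM (178 UMIs) and the ZsG- cells at 12.8 CPM (3 UMIs).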
